A study of Drosophila melanogaster with 4 samples.

Results

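The 5 genes described here act in protein quality control: Rpt3 and Prosbeta3 encode proteasome subunits, DnaJ-1 and Droj2 encode chaperones with a J domain, and Atf6 encodes a transcription factor of the endoplasmic reticulum (ER) stress response. They were chosen by name, matched through the gene symbol or the gene ID of the array's annotation, and are 5 of the 1449 genes with a value on at least 1 array. All 5 had a value on at least 3 arrays and passed that filter, as did 1444 genes in all. Each array set head RNA of unmated adult Drosophila melanogaster males of the Oregon-R wild-type strain, aged 3 to 4 days when treatment began, against head RNA of the same kind of males. The treated flies had eaten food with 1.5 mg/ml of pilocarpine (PILO), an agonist of muscarinic acetylcholine receptors, for 7 days, and the control flies normal food (NF) for the same time. The 8 pools of heads gave 4 arrays, each pairing a treated pool with the untreated pool treated in parallel, with 30 flies per vial at the start. The treated RNA carried the dye Cy5 on replicates 1 and 2 and Cy3 on replicates 3 and 4. The flies carried no transgene that the labels mention, and a head pool mixes brain, eye, fat body, muscle and cuticle.

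The proteasome degrades proteins that have been tagged with ubiquitin. Its 20S core is a barrel that holds the proteases, and its 19S regulatory particle, which contains a ring of Rpt ATPases, unfolds the substrate and feeds it into the core. J-domain proteins, also called Hsp40 proteins, bring unfolded clients to Hsp70 chaperones and stimulate their ATPase activity. When unfolded proteins build up in the ER, Atf6 is, as known from mammals, carried to the Golgi apparatus, where the site-1 and site-2 proteases cut it and release a factor that switches on ER chaperone genes.

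The values are log2 ratios of the 2 channels of an array, so they show differences between treated and untreated RNA and not levels. In RNA from whole heads, fewer cells of a type and less RNA per cell cannot be told apart. Each array was centred on the median of its spots, by subtracting medians of -0.14, -0.49, -0.28 and -0.43 from replicates 1 to 4. The labels do not say which channel is the numerator of the ratio. In the first reading, used throughout as the likely one because GenePix software divides red by green by default, the ratio is Cy5 over Cy3 and replicates 3 and 4 are turned in sign. In the second reading the ratio is treated over untreated on every array and no sign is turned. The direction is not settled, so the gene means of the 5 members are given in both readings, and other values name the reading they belong to.

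None of the 5 genes passed the test in either reading. In the first reading 2 of 1444 genes passed (0.139%, limma adjusted p under 0.05), apolpp and Obp19c, both higher. In the second reading 0 of 1444 passed (0.0%; limma, lowest adjusted p = 0.563). At an unadjusted limma p under 0.05 the first reading held 108 genes (7.48%), among them Atf6. The second reading held 126 (8.73%) at that p, among them Rpt3 and Atf6. A one-class SAM test, written here after the method the study names and run on the gene values, called 0 genes in the first reading. It is not the study's own SAM run.

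Rpt3 encodes one of the ATPases in the base of the 19S particle (gene ID 32047). It was measured by 1 probe on 3 arrays, without replicate 2. As deposited and centred, its log2 ratio was -0.50 on replicate 1, -0.55 on replicate 3 and -0.58 on replicate 4. The 3 values thus lay close together and below the array median, whichever dye the treated RNA carried, and 113 of the 696 genes on 3 arrays were below it on all of theirs (16.2%). In the second reading this gave a mean log2 ratio of -0.54 ± 0.04 (SD, n = 3), a ratio of 0.686 (limma 95% interval 0.541 to 0.871, adjusted p = 0.563). Only 12 of the 696 genes on 3 arrays, Rpt3 included, had an SD that small or smaller in this reading, where the median SD was 0.26. Rpt3 ranked 9 of 1444 genes by unadjusted limma p (0.00689). Without centring its values in this reading were -0.64, -0.83 and -1.01, with an SD of 0.18, so the closeness of the values depends on centring. By contrast, the first reading sets replicate 1 against replicates 3 and 4. The centred values became -0.50, 0.55 and 0.58, with a mean of 0.21 ± 0.62 (SD, n = 3; limma adjusted p = 0.928). With dye orientation as a covariate in the first reading, the treatment term was 0.03 and the dye term -0.53. Replicate 1 was the only array of its orientation. In the second reading these terms trade names, so -0.53 is then the treatment term. Of 1444 genes 155 (10.7%) had a dye term, as named in the first reading, at an unadjusted limma p under 0.05.

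The probe of Rpt3 was spotted in a pair, and the paired spots differed by 0.23, 0.16 and 0.29 on replicates 1, 3 and 4. The median difference over probes with 1 listed gene was 0.11, 0.12 and 0.13 on these arrays. Each of these gaps exceeded the 0.04 SD of Rpt3 over arrays in the second reading with arrays centred, but not its SD of 0.62 in the first.

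Prosbeta3 encodes a structural beta subunit of the 20S core (gene ID 41079), and its single probe also lacked replicate 2. Its log2 ratios in the first reading were 0.12, 0.04 and 0.34 on replicates 1, 3 and 4. They were above 0 on all 3 arrays, as were those of 74 of 696 genes on 3 arrays (10.6%). Without centring they were -0.02, 0.32 and 0.76 in this reading, so the shared sign depends on centring. With centring the mean was 0.17 ± 0.15 (SD, n = 3), a ratio of 1.12 (limma 95% interval 0.859 to 1.46, adjusted p = 0.927). Replicates 3 and 4 lay on the other side of 0 in the second reading, where the mean was -0.09 ± 0.23 (SD, n = 3; limma adjusted p = 0.932). Paired spots of this gene differed by 0.01, 0.05 and 0.11, each under the array's median. The exact sign-flip permutation test over arrays, two-sided, cannot go below p = 0.25 with 3 arrays. It gave 0.25 for Prosbeta3 and 0.5 for Rpt3 in the first reading, and 0.75 for Prosbeta3 and 0.25 for Rpt3 in the second. The values of the subunits differed in sign on replicate 1 and in size on replicates 3 and 4, with a root mean square difference of 0.48 over the arrays.

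**Figure D1:**
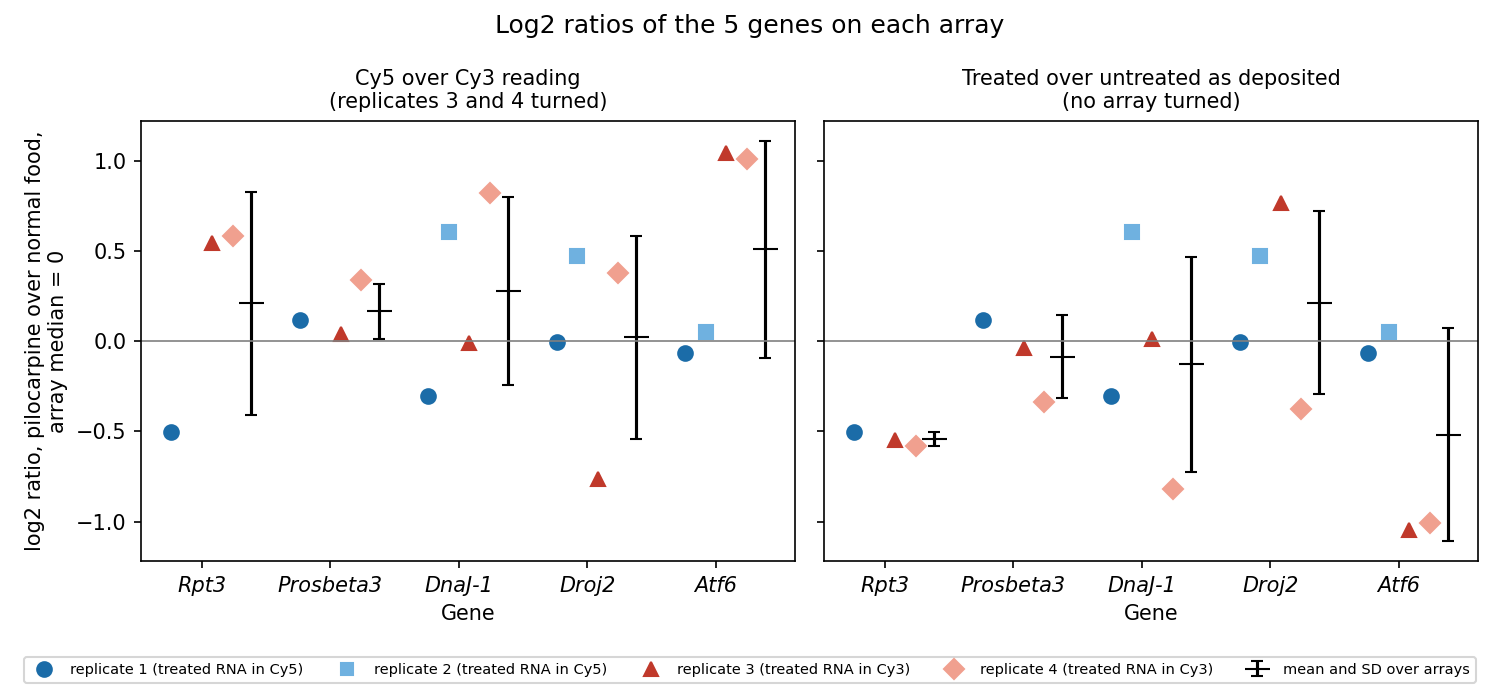
Log2 ratio of pilocarpine over normal food (y axis, array median at 0) for each gene on each array in the first reading (left) and the second reading (right); symbols mark replicates, and the bar at the right of each gene is the mean with its SD over arrays. The 3 values of Rpt3 coincide near -0.54 in the second reading and split by dye in the first, while the values of Atf6 lie near 0 on replicates 1 and 2 and near 1.03 in size on replicates 3 and 4 in both.

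DnaJ-1 encodes a heat-inducible Hsp40 cochaperone of cytosol and nucleus (gene ID 38643). The array annotation lists 8 probes for it, of which 2 had values, both on all 4 arrays. Averaged over these probes, the log2 ratios in the first reading were -0.30, 0.60, -0.01 and 0.82 on replicates 1 to 4. Replicates 2 and 4 were high and the other two at or below 0. The mean was 0.28 ± 0.52 (SD, n = 4), a ratio of 1.21 (limma 95% interval 0.907 to 1.62, adjusted p = 0.884). The second reading gave a mean of -0.13 ± 0.60 (SD, n = 4; limma adjusted p = 0.910).

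The probes of DnaJ-1 disagreed. The first was at -0.47, -0.10, 0.28 and 0.03 in the first reading, with a mean of -0.07 ± 0.31 (SD, n = 4). It was close to the array medians on replicates 2 and 4 but not on replicate 1. The second was at -0.14, 1.31, -0.30 and 1.61, with a mean of 0.62 ± 0.98 (SD, n = 4). The second reading gave -0.22 ± 0.20 for the first probe and -0.03 ± 1.21 for the second (SD, n = 4). In the first reading the positive mean of the gene thus came from the second probe on replicates 2 and 4. Over the arrays the probes differed by a root mean square of 1.11, the rank 4 largest of 55 genes with several probes, whose median was 0.39. With the second probe alone the limma adjusted p was 0.659, and with 1 probe per gene, which took the first, it was 0.978. Paired spots were far apart on some arrays: on replicate 4 those of the second probe differed by 0.64, more than in 98.2% of probes with 1 listed gene, and on replicate 3 those of the first by 0.50, more than in 96.7%. On replicate 2, where the second probe was at 1.31, they agreed more closely, with differences of 0.018 for the first probe and 0.077 for the second, more than in 6.37% and 25.4% of probes. The annotation table gives no accession for these probes, and which stretch of the transcript each one holds was not used here.

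Droj2 encodes the other J-domain protein, which belongs to the class with a zinc-finger domain (gene ID 41646), and had 1 probe with values on all 4 arrays. In the first reading its log2 ratios were -0.003, 0.47, -0.77 and 0.38 on replicates 1 to 4. Replicates 2 and 4 were again high, but replicate 3 was the lowest. The mean was 0.02 ± 0.56 (SD, n = 4), a ratio of 1.01 (limma 95% interval 0.751 to 1.37, adjusted p = 0.990). The second reading gave 0.21 ± 0.51 (SD, n = 4; limma adjusted p = 0.788). On replicate 3 the deposited ratio of Droj2 exceeded that of 97.7% of genes. On replicate 4 its paired spots differed by 0.60, more than in 97.9% of probes with 1 listed gene. The upper bound of the interval of Droj2 in the second reading was a ratio of 1.57 and the lower bound 0.855.

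Atf6, the ER stress factor (gene ID 35480), had the largest mean of the 5 in the first reading. Its log2 ratios were -0.07, 0.05, 1.05 and 1.01 on replicates 1 to 4. The gene was at the array median on replicates 1 and 2 and about 1 log2 unit away on replicates 3 and 4. The mean of 0.51 ± 0.60 (SD, n = 4), a ratio of 1.42 (limma 95% interval 1.04 to 1.94), had an unadjusted p of 0.0293 and a limma adjusted p of 0.608. The mean was 0.33 without replicate 3 and 0.34 without replicate 4. The same arrays gave, in the second reading, -0.52 ± 0.59 (SD, n = 4), a ratio of 0.698 (limma 95% interval 0.499 to 0.977, adjusted p = 0.563). The means of both readings thus had nearly the same size and opposite signs. With dye orientation as a covariate in the first reading, the treatment term was 0.51 (limma adjusted p = 0.0795) and the dye term -0.52 (limma adjusted p = 0.123). The second reading exchanges the names of these terms. For a gene on all 4 arrays these terms are, by construction, the means of the first and the second reading. Only their estimate of error is new. By the names of the first reading, that fit called 30 of 1444 genes for the treatment (2.08%) and 4 for the dye (0.277%).

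Atf6 differed from DnaJ-1 in that its probes agreed. The first probe was at -0.08, 0.17, 0.79 and 1.16 and the second at -0.05, -0.07, 1.31 and 0.86 in the first reading. Their means were 0.51 each, against -0.47 and -0.57 in the second reading, and they differed by a root mean square of 0.32, under the median of 0.39 over genes with several probes. Both probes thus show the split between replicates 1 and 2 and replicates 3 and 4. As deposited, the value of Atf6 was below that of 97.6% of genes on replicate 3 and of 97.9% on replicate 4. Of the 748 genes on all 4 arrays, 8 lay below -1 on both of these arrays (1.07%), a threshold chosen after the values of Atf6 were seen. The exact sign-flip permutation test cannot go below p = 0.125 with 4 arrays, and gave 0.375 for Atf6, 0.5 for DnaJ-1 and 1 for Droj2 in the first reading (two-sided). In the second reading it gave 0.25 for Atf6, 0.75 for DnaJ-1 and 0.5 for Droj2.

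**Figure D2:**
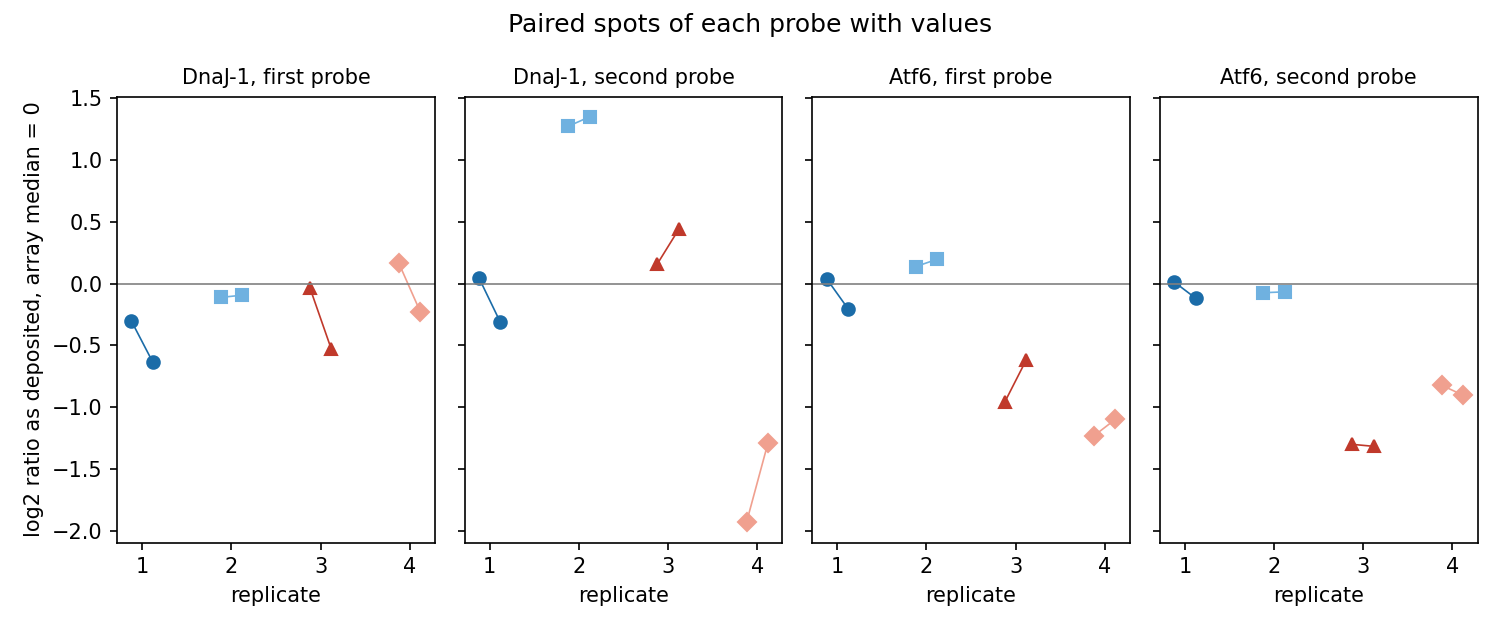
Deposited log2 ratio of each spot, less the array median (y axis), for the probes with values of DnaJ-1 and Atf6 on replicates 1 to 4 (x axis); a line joins the paired spots of a probe. The probes of DnaJ-1 differ on replicates 2 and 4, where the second is at 1.31 and -1.61, and both probes of Atf6 are low on replicates 3 and 4.

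Among all 1444 genes the mean of Atf6 was higher than 96.9% in the first reading and lower than 98.1% in the second. The mean of Rpt3 was higher than 84.9% in the first and lower than 98.5% in the second. The means of Prosbeta3 and DnaJ-1 exceeded 80.9% and 90.3% of genes in the first reading and 33.1% and 26.7% in the second. All 5 means were above 0 in the first reading, as were those of 49.0% of genes. Droj2 was the only one of the 5 above 0 in the second reading, against 50.8% of genes.

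**Figure D3:**
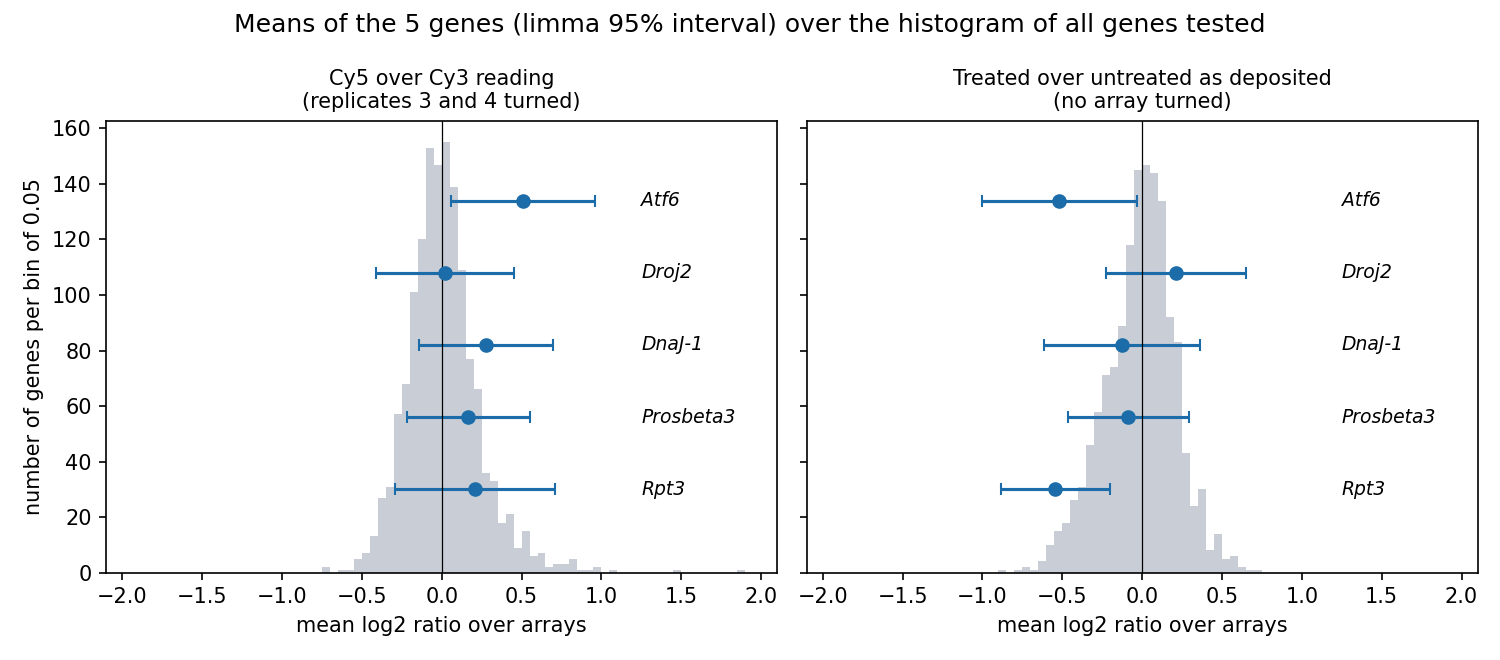
Mean log2 ratio over arrays (x axis) of the 5 genes, as points with the limma 95% interval and placed at arbitrary heights, over a histogram of the means of 1444 genes (y axis, genes per bin) in the first reading (left) and the second (right). Atf6 lies at 0.51 and -0.52, and the intervals of Prosbeta3, DnaJ-1 and Droj2 span 0 in both panels.

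Without centring, all 5 members lay below 0 in the second reading, with Droj2 at -0.12. Most genes did so too: the median over all genes was itself below 0, and 95% of genes lay at or under 0.03. There Rpt3 was at -0.83 (limma adjusted p = 0.00894) and Atf6 at -0.86 (limma adjusted p = 0.00302), and both passed. In that setting 237 of 1444 genes passed (16.4%), all of them lower, and the median over all genes was -0.31. After centring no member passed.

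Genes whose ratios lay nearest to those of each member were found by the root mean square difference over the same arrays, a measure that depends on neither the direction nor the centring. For Rpt3 they were CG9396 (0.13) and kra (0.15), among 479 genes with a median of 0.61. For Prosbeta3 they were CG15365 (0.04) and betaGlu (0.05), with a median of 0.35. For DnaJ-1 they were CG3036 (0.10) and GstE12 (0.15), among 747 genes with a median of 0.60, and for Droj2 tai (0.08) and CG16799 (0.16), with a median of 0.56. For Atf6 they were CG31846 (0.12) and the receptor gene DopEcR (0.18), with a median of 0.80. No member was among the 2 nearest of another. The smallest differences between members were those of DnaJ-1 to Rpt3 and to Prosbeta3, each 0.37 over 3 arrays. The farthest members were Droj2 and Atf6 at 0.98 over 4.

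The wider machinery was described through 5 lists of genes, of which 38 were measured on 3 or more arrays, the 5 members included. None of the other 33 passed in either reading. Their means ran from -0.43 to 0.34 in the first reading, with a median of -0.03, and from -0.47 to 0.43 in the second, with a median of 0.00. The median over all genes was -0.005 and 0.005. At an unadjusted limma p under 0.05 there was 1 of the 33 in the first reading and 4 in the second, beside 7.48% and 8.73% of all genes. The sign differed between the readings for 25 of the 33. The share of all genes with such a change was not counted, so this number does not set these genes apart.

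Of 51 proteasome genes 33 were on the array and 6 were measured, with a median of -0.01 in the first reading and 0.03 in the second. Besides Rpt3 and Prosbeta3 they were REG, the 11S activator, Rpn11 and Rpn12 of the 19S lid, and Pomp, which assists assembly of the core. In the second reading Rpt3 at -0.54 and REG at -0.47 ± 0.29 (SD, n = 3) lay on one side and Pomp at 0.41 ± 0.27 (SD, n = 4) and Rpn12 at 0.43 ± 0.22 (SD, n = 3) on the other, each with a limma adjusted p of 0.563. In the first reading REG, Pomp and Rpn12 were at 0.01, -0.03 and -0.13, and Rpn11 was at -0.03. The proteasome genes thus did not share a direction in the second reading, and in the first all 6 lay between -0.13 and 0.21.

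Of 82 genes of the ubiquitin system 46 were on the array and 9 were measured, with a median of -0.07 in the first reading and 0.15 in the second. The highest mean in the first reading belonged to Usp14, which encodes a deubiquitinase bound to the proteasome, at 0.34 ± 0.35 (SD, n = 3; limma adjusted p = 0.822), and was -0.32 in the second. Uev1A, a ubiquitin-conjugating enzyme variant, was at 0.27 and -0.29, and the polyubiquitin gene Ubi-p5E at 0.07 and 0.04. The lowest was Cul5, a cullin scaffold of ubiquitin ligases, at -0.25 and 0.39. Between them lay CSN3 and CSN8 of the COP9 signalosome at -0.07 and -0.18 in the first reading, the conjugating enzyme gene Ubc7 at -0.07, Sumo at -0.19 and STUB1, which encodes a ubiquitin ligase that works with chaperones, at -0.09.

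Of 41 genes for J-domain proteins 31 were on the array and 10 were measured, with a median of 0.04 in the first reading and -0.04 in the second. DnaJ-1 was the highest in the first reading and jdp the lowest, at -0.24 ± 0.49 (SD, n = 4; limma adjusted p = 0.910). Its value in the second reading was -0.35 ± 0.40 (SD, n = 4; limma adjusted p = 0.597). Auxilin (aux), which strips clathrin coats with Hsc70, was at -0.11 ± 0.10 (SD, n = 4) and -0.02. The ER translocation gene Sec63 was at 0.06 and mrj at 0.14 in the first reading. The genes known by number were CG11035 at 0.22, CG17187 at 0.17, CG3061 at -0.03 and CG10375 at -0.17.

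The list of heat shock proteins and their cochaperones held 52 genes, 27 of them on the array and 5 measured. Roe1, which encodes the GrpE-like exchange factor of mitochondrial Hsp70, was at -0.15, -0.69, -0.54 and -0.32 on replicates 1 to 4 in the first reading. It was below 0 on all 4 arrays, as were 50 of the 748 genes on 4 arrays (6.68%), and its mean was -0.43 ± 0.24 (SD, n = 4; limma unadjusted p = 0.0168, adjusted p = 0.585). Its mean in the second reading was 0.00 ± 0.55 (SD, n = 4). The other four were the prefoldin gene Pfdn4 at 0.14, the Hsp10 homologue CG11267 at 0.05, the Hsp70-interacting protein gene HIP at -0.04 and the small heat shock protein gene l(2)efl at -0.22 in the first reading.

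Of 43 genes for ER folding and the unfolded protein response 25 were on the array and 9 were measured, with a median of 0.09 in the first reading and -0.18 in the second. Atf6 was the farthest from 0 in both. S2P, which encodes the site-2 protease that cuts Atf6 in mammals, was at -0.20 ± 0.21 (SD, n = 4; limma adjusted p = 0.910), against 0.13 in the second reading. The ER stress genes crc, which encodes the fly homologue of ATF4, and Edem1, which acts in ER-associated degradation, were at 0.18 and 0.23 in the first reading and at -0.28 and -0.22 in the second. The translocon genes Sec61gamma and Sec61beta were at 0.18 and -0.12, the oxidase gene Ero1L at -0.09 and the calnexin gene Cnx99A at 0.09 in the first reading. The probes of Cnx99A differed by a root mean square of 1.03, next in size after those of DnaJ-1.

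**Figure D4:**
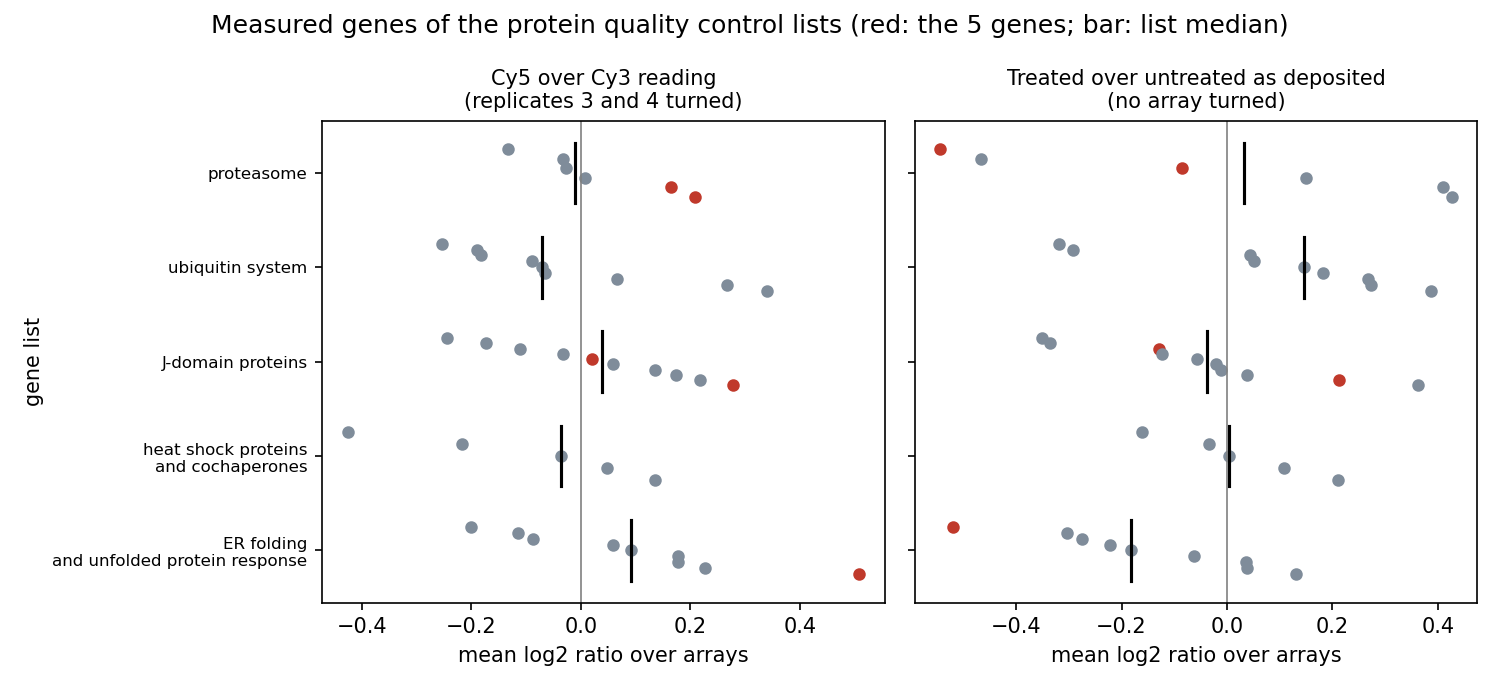
Mean log2 ratio over arrays (x axis) of each measured gene of the 5 lists (rows; Sec63 stands in 2 of them) in the first reading (left) and the second (right), with the 5 genes in red and the list median as a bar. No gene shown passed the test, and the ER list has its median at 0.09 in the first reading and -0.18 in the second.

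The arrays gave values for 6257, 4428, 6392 and 5527 spots on replicates 1 to 4. Of marker lists for head cells, the array held 9 of 13 photoreceptor, 11 of 12 fat body and 5 of 11 muscle genes. It also held 6 of 8 glial, 2 of 11 neuronal and 6 of 7 haemocyte genes. Of those on the array, 6 photoreceptor, 8 fat body, 5 muscle, 2 glial, 1 neuronal and 1 haemocyte genes were measured. A ratio does not show how strongly they are expressed, so the labelled tissue could be checked only through which of them had values. Of the fat body genes apolpp passed in the first reading, at 1.45, and the list ran from -0.12 to 1.45 with a median of 0.14. The second reading put apolpp at -0.23 and the median of that list at -0.27, with 7 of its 8 genes below 0 and none past the threshold. Of all genes 50.8% had a mean above 0 in that reading. The other marker lists ran from -0.40 to 0.25 in the first reading, and no gene of theirs passed in either. The part of cell composition in the members' values was not tested.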

How the data were processed

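Values are the deposited log2 ratios of 4 two-colour cDNA arrays (27648 spots). Per the labels and design text, the authors quantified spots in GenePix Pro 6.0, normalized ratios in Acuity 4.0, filtered spots on saturation, flags, uniformity and signal over background, and tested with SAM 3.0. The log base was read from the highest value, 16.61, the log2 of a ratio of 100000; the 11 cells at this ceiling were dropped. Paired spots, then probes with 1 listed gene (1510 of 3236), were averaged, and symbols updated through gene IDs (29 probes unmatched). Arrays were centred on their spot median. Genes on at least 3 arrays were fitted with limma 3.58.1 in R 4.3.3 (intercept only, eBayes, Benjamini-Hochberg over 1444 genes). The fit was tested on simulated data with planted changes of 2 log2 units. These are larger than the mean of any member, so effects of the members' size were not covered. The design text calls the 4 parallel sets biological replicates. Members and lists were chosen with earlier results of these data known. Named were the members, all measured genes of lists with 10 or fewer (otherwise 3 from each end), and the 2 genes nearest to each member. Alternatives covered direction, centring, dye, filters, probes, eBayes, ceiling, SAM and leaving out arrays. The number of arrays limits the precision. No sequence or coordinate was used here.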

Additional observations from a re-analysis of the deposited data

How the results depend on the processing

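No member passed in the first reading with arrays centred, and none passed under any other alternative except Rpt3 and Atf6 in the second reading without centring, a combination chosen after seeing the data. In the second reading the signs of Rpt3 (-0.54), Prosbeta3 (-0.086), DnaJ-1 (-0.13) and Atf6 (-0.52) reversed. Without centring in that reading Rpt3 was at -0.83, Prosbeta3 at -0.37, DnaJ-1 at -0.46, Droj2 at -0.12 and Atf6 at -0.86. The median over all genes was -0.31 there. Centring moved Droj2 to 0.21, and the other members stayed below 0. In the first reading with 1 probe per gene DnaJ-1 was at -0.065, because its probes differ. Rpt3 and Prosbeta3 have no value among genes on all 4 arrays. Leaving out 1 array at a time (genes on at least 2 of the others) was done in the first reading only. It gave 0.02 to 0.56 for Rpt3, 0.08 to 0.23 for Prosbeta3 and 0.10 to 0.47 for DnaJ-1. The range was -0.13 to 0.28 for Droj2, 0.33 to 0.70 for Atf6 and 0.059 to 0.23 for the median of the ER list. The count of 2 genes past the threshold in the first reading became 0 in the second, and 237 in the second without centring. Within the first reading it was 30 with the dye covariate, 1 among genes on all arrays, 1 with 1 probe per gene and 0 with SAM. Without 1 array it ran from 0 to 18 (it was 12 when replicate 1 was left out, 18 for replicate 3, and 0 for replicates 2 and 4). The list medians moved to -0.23 for heat shock genes when only the 2 on all arrays were kept, and to -0.18 for the ER list in the second reading. The mean over arrays of the median difference of paired spots was 0.13 for probes with a listed gene and 0.15 for all probes. Each array already holds both members of a pair, so the fit over arrays is itself paired. The dye groups share no replicate number, so arrays were not paired across dyes.

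Of the other pathway genes, those of opposite sign in the second reading were CG10375 0.36, CG11035 -0.34, CG17187 -0.12, CSN3 0.15, CSN8 0.052, Cnx99A -0.30, Cul5 0.39, Edem1 -0.22, Pfdn4 -0.034, Pomp 0.41, REG -0.47, Roe1 0.003, Rpn11 0.15, Rpn12 0.43, S2P 0.13, STUB1 0.27, Sec61beta 0.036, Sec61gamma -0.062, Sumo 0.27, Ubc7 0.18, Uev1A -0.29, Usp14 -0.32, crc -0.28, l(2)efl 0.21 and mrj -0.012. The further values here belong to the first reading. Without centring CG10375 (0.015), CG3061 (0.16), CSN3 (0.12), REG (-0.11), Rpn12 (0.055) and STUB1 (0.10) changed sign, and with the dye covariate Rpn12 (0.01) and STUB1 (0.002) did. With 1 probe per gene Cnx99A was at -0.049. Leaving out 1 array also changed signs, with ranges of -0.40 to 0.06 for CG10375, -0.046 to 0.11 for CG11267, -0.23 to 0.12 for CG3061, -0.16 to 0.063 for CSN3, -0.11 to 0.30 for Cnx99A, -0.21 to 0.022 for Ero1L, -0.13 to 0.068 for HIP, -0.27 to 0.15 for Pomp, -0.34 to 0.28 for REG, -0.16 to 0.092 for Rpn11, -0.42 to 0.12 for Rpn12, -0.27 to 0.13 for STUB1, -0.31 to 0.026 for Sec61beta, -0.043 to 0.13 for Sec63, -0.38 to 0.058 for Sumo, -0.17 to 0.064 for Ubc7, -0.027 to 0.33 for crc and -0.35 to 0.016 for l(2)efl. The cause of these changes of sign was not tested.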
